A study of Mus musculus with 6 samples.

Results

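The 49 genes described here are imprinted in the mouse: one parental copy is expressed and the other is silenced. They were taken from a list of genes in 21 imprinted clusters, 27 listed as expressed from the paternal allele, 21 from the maternal allele and 1, Gnas, with products of both kinds. The list was chosen with earlier results of these data known. For 17 of them imprinting is known only in some tissues or stages. The array annotation gave a probe set, alone or shared with another gene, to 47 of the 49, out of 18824 annotated genes and gene combinations on the array. Dio3 and Zrsr1 had none there and are named only. In all 130 probe sets belonged to these genes, and 8 of them were shared: the H19 probe set with Mir675, 6 of Snrpn with Snurf, and 1 between Airn and Igf2r.

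Expression was measured on 6 arrays of total RNA from Flk1+ cells, which the labels describe as equivalent to the haemangioblast, the embryonic progenitor that gives rise to blood and vessel cells. The cells came from day 4 embryoid bodies of mouse embryonic stem (ES) cells, grown in suspension without LIF. One group was Ldb1+/+ (wild type) and the other Ldb1-/- (knockout), with 3 biological replicates each. LDB1 is an adaptor protein that joins LIM-domain proteins and DNA-bound factors in transcription complexes. The labels do not say how many ES lines or clones stood behind each genotype, so a difference between lines and a difference between genotypes cannot be told apart. Nor do they say whether replicates came from separate cultures, and p-values then measure only the spread between these samples.

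Imprinted genes are marked in the germ line by DNA methylation at control regions that stay different on the paternal and maternal copies. Most lie in clusters in which protein-coding genes and a non-coding RNA are expressed from opposite alleles. Many act in growth of the embryo and placenta, and paternally and maternally expressed genes often act in opposite directions on growth. The arrays read the sum of both alleles, so allelic origin was not measured here.

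All levels below are log2 values, on which 1 step is a doubling. The median over all probe sets was 5.74 and the lower quartile 4.28. The knockout arrays read the targeted gene Ldb1 at 7.37 against 7.80 in wild type, which was not past the threshold (limma, adjusted p = 1.00). Kdr, the gene of Flk1, averaged 12.12 in wild-type and 11.70 in knockout arrays, and 7 of 8 markers of Flk1-positive mesoderm were above the median level, Pecam1 being the exception. The Y-linked gene Eif2s3y read 10.43, 11.04 and 10.43 in wild type but 3.25, 3.09 and 3.18 in knockout, and Uty read 6.63, 7.47 and 6.75 against 3.50, 3.42 and 3.49. Kdm5d, also Y-linked, read 5.53, 6.56 and 3.45 against 3.32, 3.26 and 3.37, so that wild-type replicate 3 was near the knockout level. Xist lay between 5.96 and 6.59 in all 6 arrays. Both arrays of number 3 differed from the rest in control probe sets, with 18S ribosomal RNA at 11.9 and 12.1 against 8.51 to 9.39 elsewhere. Of the 5 cardiac mesoderm markers, Hand2 and Myl7 were lower in knockout without overlap, by −2.70 and −1.44. Hand2 passed with the block (limma, adjusted p = 0.00114, and 0.172 without it) and Myl7 did not (0.103 with the block). Mesp1, Nkx2-5 and Tnnt2 overlapped, with differences of −0.55, −0.08 and 0.23. The summed level of the list was 41.9 to 44.7 in wild type and 37.2 to 39.7 in knockout. The summed fibroblast markers of a feeder layer ranged over 32.6 to 36.8 and 32.3 to 38.7, and those of trophoblast over 27.0 to 28.2 and 27.1 to 28.7. The summed ES cell markers ranged over 35.3 to 37.3 in wild type and 36.8 to 39.8 in knockout. Of the 5, only Zfp42 was higher in knockout without overlap, by 0.66, 0.62 and 1.05 for numbers 1, 2 and 3. It did not pass (limma, adjusted p = 0.876, and 0.129 with the block). Pou5f1, Nanog and Sox2 differed by 0.47, 0.31 and 0.71 and Esrrb by −0.29, all with overlap. Zfp42 lies on chromosome 8, where most measured genes were higher in knockout, with a median difference of 0.15. Whether the Zfp42 difference is part of that shift was not tested. The part of any of these differences in the results below was not tested. In bulk RNA, fewer cells of a type and less RNA per cell cannot be told apart.

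The sequences below are shown because the clearest differences sat at genes whose imprinted promoters are known to be CG-rich and methylated on one allele, and because the most reduced transcripts carry microRNAs. They are the 250 bases upstream of the RefSeq start of 4 paternally expressed genes that were lower in knockout cells and of H13, the host gene of Mcts2, in build GRCm38.p6. All are on the plus strand: Mest at chr6:30737800-30738049, Plagl1 at chr10:13090582-13090831, Nnat at chr2:157559828-157560077, Mcts2 at chr2:152686898-152687147 and H13 at chr2:152669211-152669460. Where a gene had several starts, the window with the most CG was taken. Capitals mark each CG.
Mest: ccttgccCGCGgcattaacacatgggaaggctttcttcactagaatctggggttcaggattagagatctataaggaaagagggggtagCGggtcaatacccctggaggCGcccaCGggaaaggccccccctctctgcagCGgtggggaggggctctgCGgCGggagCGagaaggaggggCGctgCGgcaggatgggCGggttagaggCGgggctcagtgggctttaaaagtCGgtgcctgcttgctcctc
Plagl1: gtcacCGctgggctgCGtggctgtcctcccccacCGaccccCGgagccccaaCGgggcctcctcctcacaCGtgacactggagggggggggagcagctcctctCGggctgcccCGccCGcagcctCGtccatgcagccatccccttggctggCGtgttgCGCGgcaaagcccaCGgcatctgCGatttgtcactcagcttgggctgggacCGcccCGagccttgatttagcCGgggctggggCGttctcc
Nnat: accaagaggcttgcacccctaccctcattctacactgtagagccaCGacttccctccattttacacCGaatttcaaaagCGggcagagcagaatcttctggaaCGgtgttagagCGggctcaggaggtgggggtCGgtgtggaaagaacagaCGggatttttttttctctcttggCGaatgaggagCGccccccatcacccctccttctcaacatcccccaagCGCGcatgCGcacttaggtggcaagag
Mcts2: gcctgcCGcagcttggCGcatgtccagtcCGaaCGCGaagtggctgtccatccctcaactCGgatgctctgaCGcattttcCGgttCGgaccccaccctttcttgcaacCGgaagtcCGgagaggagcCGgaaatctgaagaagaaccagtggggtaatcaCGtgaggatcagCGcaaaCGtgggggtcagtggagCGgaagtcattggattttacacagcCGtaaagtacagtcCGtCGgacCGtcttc
H13: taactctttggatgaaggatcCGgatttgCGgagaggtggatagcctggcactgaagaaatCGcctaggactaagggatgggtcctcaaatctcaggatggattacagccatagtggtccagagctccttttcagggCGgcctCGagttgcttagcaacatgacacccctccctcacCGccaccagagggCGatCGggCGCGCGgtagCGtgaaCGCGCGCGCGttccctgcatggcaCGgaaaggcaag

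These windows held 14 CG in Mest, 19 in Plagl1, 12 in Nnat, 20 in Mcts2 and 18 in H13, where the median over 26994 genes with such a window was 6. The letters TGCCGC, the core of the motif that the imprint-keeping zinc-finger protein ZFP57 is known to bind when methylated, were searched on both strands (TGCCGC or GCGGCA). Mest held 2, starting 242 and 67 bases upstream of its start, Plagl1 held 1 at 90 bases and Mcts2 1 at 247 bases, while the Nnat and H13 windows held none. The letters occurred in 9.14% of all windows and in 21.5% of the 7980 with at least 15 CG. Among paternally expressed genes with a window they were in 3 of the 4 that were lower in the blocked fit described below and in 1 of the other 20, Nap1l5. The other 20 include Dio3 and Zrsr1, which had no probe set and so were not compared. The median number of CG was 16.5 in those 4 windows and 8 in the other 20. The part of this in the counts was not tested. Among maternally expressed genes the letters were in 4 of 18. A window was found for 43 of the 49 genes, and a match shows only that the letters are present. H19, Peg10, Sgce, Kcnq1, Cdkn1c and Impact had no entry.

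The microRNAs carried by the Mest and H19 transcripts are given with their seeds, bases 2 to 8, in capitals. miR-335 lies in an intron of Mest (chr6:30741314-30741336 for the 5p strand and chr6:30741354-30741375 for the 3p strand, both on the plus strand), and miR-675 is cut from H19 (chr7:142577112-142577133 and chr7:142577078-142577099, minus strand).
mmu-miR-335-5p: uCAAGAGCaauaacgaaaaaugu
mmu-miR-335-3p: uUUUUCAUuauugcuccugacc
mmu-miR-675-5p: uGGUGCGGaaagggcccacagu
mmu-miR-675-3p: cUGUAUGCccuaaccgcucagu
No seed is shared among the 4, and the level of the mature microRNAs was not measured.

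Across the list, a few genes fell a great deal. Without regard to replicate number, 1 of the 47 genes was lower at an adjusted p under 0.05 (limma), Mest, where 0.0319% of all annotated genes were lower and 0% higher, and none of the 47 was higher. At an unadjusted p under 0.05 there were 13 of 47, and 734 of 18824 in the whole table. Arrays of the same replicate number deviated together, and with that number as a block 6 genes were lower (Mest, H19, Plagl1, Nnat, Mcts2 and Sgce) and 1 was higher (H13), against 0.223% and 0.106% of all genes. The 2 genotypes did not overlap for 9 genes that were lower and 3 that were higher, where 4.46% and 3.5% of all genes did so. Differences were within 0.5 for 34 of the 47, and for 17945 of the 18824 in the whole table. In the order of all 18824 differences, from the most negative, Mest was number 2, H19 number 5, Plagl1 number 9 and Nnat number 17. As the list was chosen with earlier results of these data known, these counts and ranks describe it and are no independent test. Leaving out knockout replicate 2 brought the unblocked count to 0, with 3 calls among all 18824 genes. Leaving out replicate 3 of either genotype brought it to 2, with 8 calls among all genes for wild type and 5 for knockout. The blocked count of 7 was 4 without both arrays of number 1 and 13 without both of number 3. Among all 18824 genes 19 and 839 passed in these 2 settings, so the member count moved with that of the whole table.

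**Figure D1:**
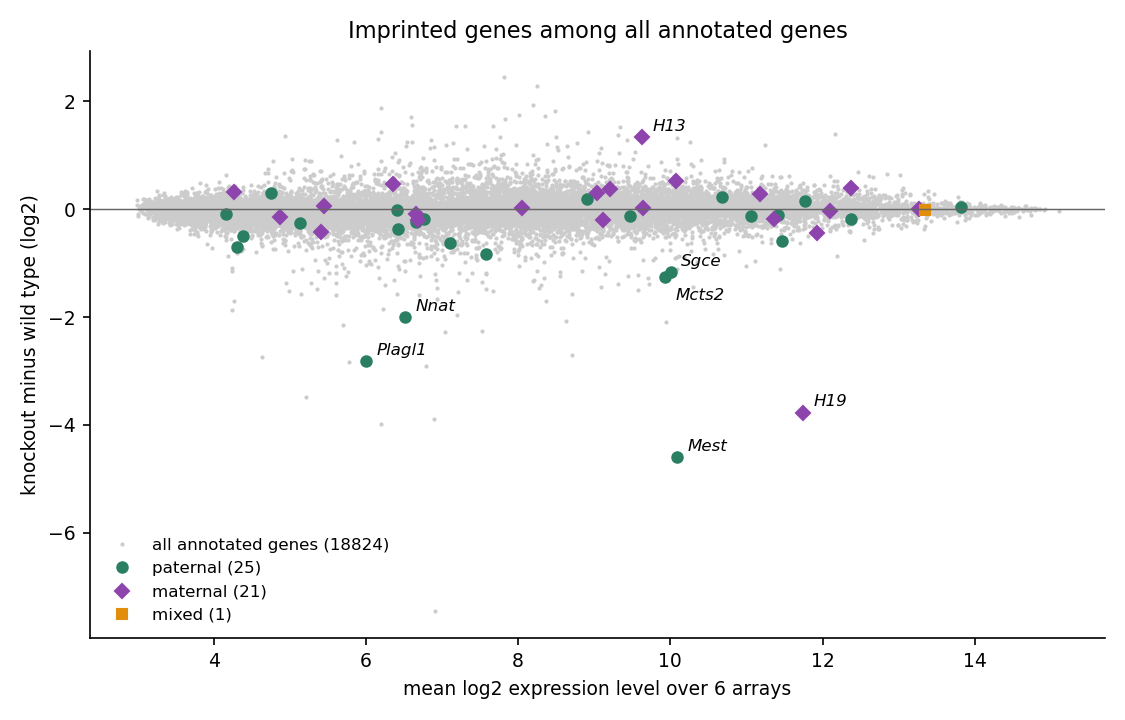
Difference between knockout and wild type (log2) against the mean log2 level over 6 arrays, for all 18824 annotated genes and gene combinations (grey) and the imprinted genes by expressed allele (coloured). Mest, H19, Plagl1 and Nnat lie at −2.0 or below, H13 at 1.34, and most others near 0.

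By expressed allele, 20 of the 25 measured paternally expressed genes were lower in knockout and 5 higher. Their median difference was −0.25, where the whole table had a median of −0.01. By replicate number the paternal medians were −0.37, −0.27 and −0.26 for numbers 1, 2 and 3. With the blocked calls set aside, 15 of the remaining 20 were lower, with a median of −0.15. Among the 21 maternally expressed genes 9 were lower and 12 higher, with a median of 0.02, and the blocked calls were H19, lower, and H13, higher. The paternal median was −0.44 without knockout replicate 2, and the maternal median turned to −0.09 without it and was −0.03 after repeated quantile normalisation. The difference between the alleles was not tested, since the genes were chosen with these results known.

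**Figure D2:**
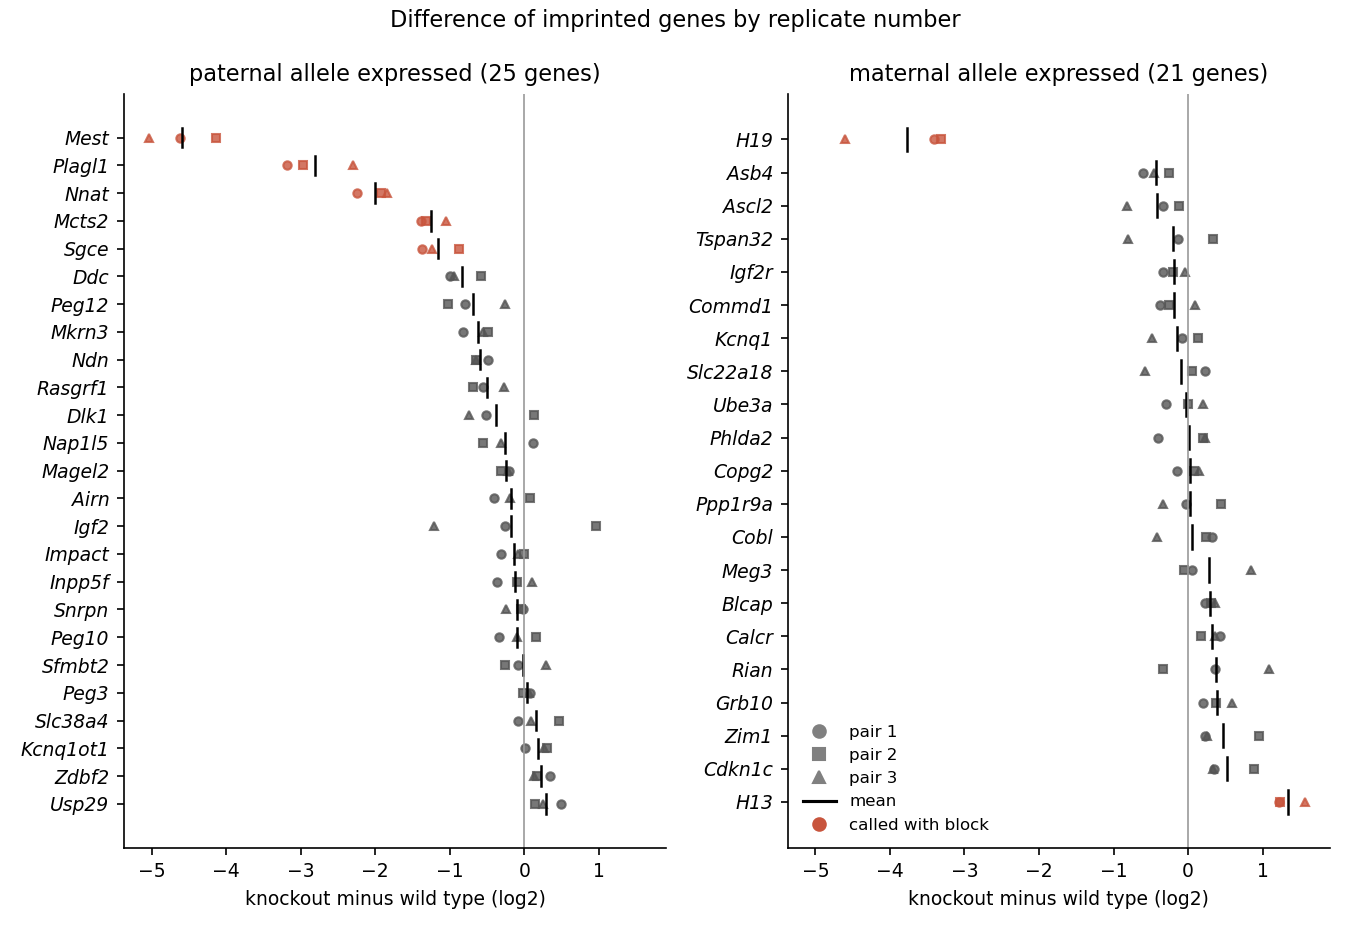
Difference between the knockout and the wild-type array of the same replicate number (log2) for each imprinted gene, with the mean as a bar and genes past the threshold in the blocked fit in red. The paternally expressed genes, on the left, reach further below 0 than above it, and Mest, H19, Plagl1, Nnat, Mcts2, Sgce and H13 keep their sign in all 3 pairs.

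Mest, a paternally expressed gene of mesoderm that encodes a hydrolase-like membrane protein, gave the largest difference of the list. It read 12.22, 11.97 and 12.98 in wild-type replicates 1, 2 and 3 and 7.60, 7.84 and 7.94 in knockout. All knockout arrays lay far below all wild-type arrays, though still above the median probe set. The fall was 24.2-fold, −4.60 on the log2 scale (SE 0.27, n = 3 per genotype; limma, adjusted p = 0.004 without and 0.000759 with the block). Without knockout replicate 2 the adjusted p was 0.0503. Copg2, its tail-to-tail neighbour, encodes a coat protein of transport vesicles and is maternally expressed only in some tissues. It read 9.66, 10.00 and 9.23 in wild type and 9.51, 10.07 and 9.37 in knockout. The groups overlapped, with a difference of 0.02 (limma, adjusted p = 1.00). Of the 10 nearest measured genes around Mest, none passed in either fit, and their differences ranged from −0.33 to 0.34.

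H19 is the maternally expressed non-coding RNA that shares a control region with Igf2, the paternally expressed growth factor gene. The only H19 probe set, shared with Mir675, read 13.70, 13.72 and 13.46 in wild type and 10.29, 10.41 and 8.86 in knockout. It was among the brightest in wild type and lower in every knockout array, most in replicate 3. The fall was 13.7-fold, −3.77 on the log2 scale (SE 0.40), and passed the test with the block only (limma, adjusted p = 0.00618, and 0.0792 without it). Igf2 read 12.92, 12.28 and 12.20 in wild type and 12.65, 13.24 and 10.99 in knockout. Its groups overlapped: by replicate number the knockout array was lower by −0.27 and −1.21 for numbers 1 and 3 and higher by 0.96 for number 2. Its mean difference was −0.17 (limma, adjusted p = 1.00), and its other probe set lay near background at 4.03. Around H19, 9 of the 10 nearest measured genes were lower, Igf2 among them, with a median difference of −0.10. Of all annotated genes 10077 of 18824 were lower. None of the 10 passed in either fit, and the range was −0.42 to 0.07.

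Plagl1 encodes a zinc-finger transcription factor that restrains growth. The probe set kept for it read 8.01, 7.65 and 6.57 in wild type and 4.83, 4.68 and 4.28 in knockout. Knockout arrays were near the lower quartile of all probe sets, and no array overlapped. The measured fall was 7.03-fold, −2.81 on the log2 scale (SE 0.37), and passed with the block (limma, adjusted p = 0.00618, and 0.147 without it). That probe set can bind several transcripts by its name (1426208_x_at). The other probe sets, 1438588_at and 1450533_a_at, averaged 5.04 and 3.97, differed by −0.21 and −0.05 and showed no such fall. The fold of 7.03 is for 1426208_x_at alone, with knockout arrays near background, and does not give the size of a change in Plagl1 as a whole.

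Nnat encodes a small membrane protein of neurons and lies in an intron of Blcap, a gene named for bladder cancer that is maternally expressed only in brain. Nnat read 8.00, 7.29 and 7.25 in wild type and 5.75, 5.38 and 5.41 in knockout. All wild-type arrays were higher, with differences of −2.24, −1.92 and −1.85 by number. The fall was 4.01-fold, −2.0 on the log2 scale (SE 0.23), and passed with the block (limma, adjusted p = 0.00618, and 0.115 without it). Blcap read 9.27, 8.84 and 8.57 in wild type and 9.50, 9.15 and 8.93 in knockout. It was higher in the knockout array of every number, by 0.23, 0.30 and 0.36, but the groups overlapped and the difference of 0.30 did not pass in either fit (limma, adjusted p = 1.00).

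Mcts2 is a paternally expressed retrogene in an intron of H13, which encodes a signal peptide peptidase. H13 is known to end at different sites on the 2 alleles, with full-length transcripts mainly from the maternal copy and shorter ones from the paternal copy. Mcts2 read 10.26, 10.67 and 10.74 in wild type and 8.87, 9.35 and 9.69 in knockout, and H13, by its brightest probe set, 8.67, 9.16 and 9.06 in wild type and 9.88, 10.39 and 10.63 in knockout. The gene and its host thus differed in opposite directions, each without overlap. Mcts2 fell 2.39-fold, −1.26 (SE 0.24), and H13 rose 2.53-fold, 1.34 (SE 0.23), and both passed with the block only (limma, adjusted p = 0.0278 and 0.0276, against 0.399 and 0.319 without it). Without both arrays of number 1 the blocked values were 0.109 and 0.0675.

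The 6 probe sets of H13 did not move together. Beside 1417287_at, 1438456_at was higher in every pair with a difference of 0.50, and 1438865_at and 1428856_at differed by 0.09 and 0.22. In contrast 1428855_at was lower by −0.23 and 1455631_at by −0.80, the latter reading 5.52, 5.34 and 5.09 in wild type and 4.71, 4.38 and 4.45 in knockout, with no overlap. The mean of all 6 differed by 0.19 (limma with the block, adjusted p = 0.801). The call for H13 thus holds for its brightest probe set, and which transcript end each probe set reads was not examined here.

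**Figure D3:**
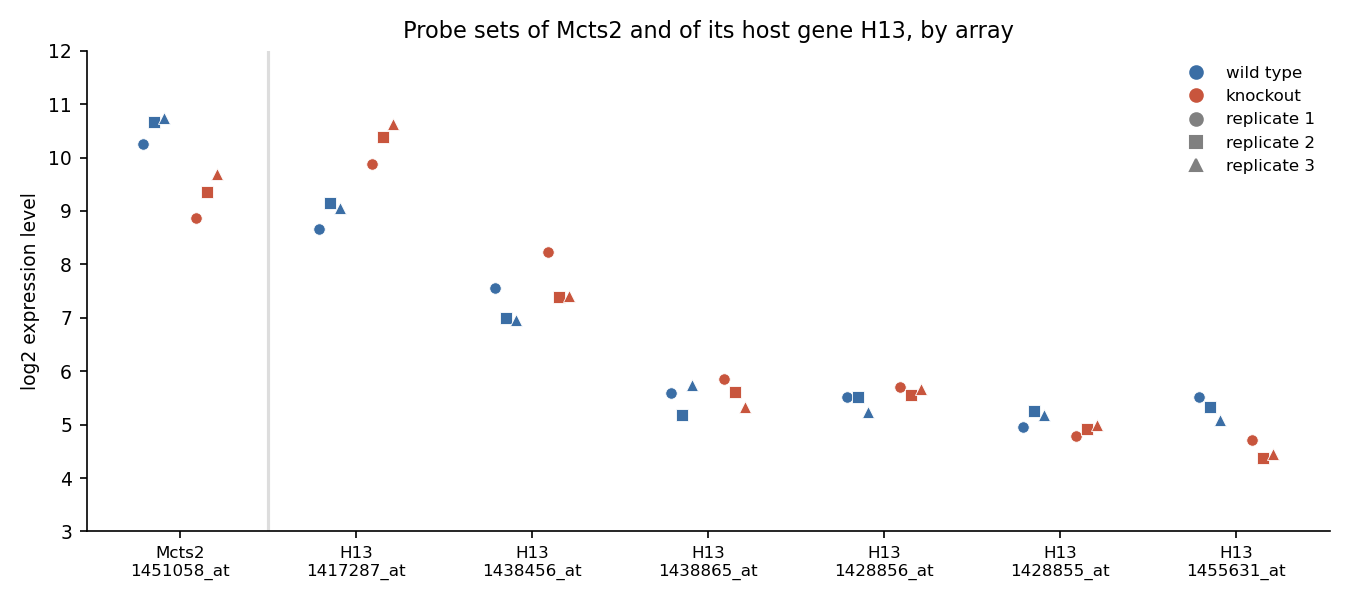
Log2 level of the Mcts2 probe set and the 6 H13 probe sets in each array, wild type in blue and knockout in red, with a symbol per replicate number. Mcts2 is lower in knockout, H13 probe set 1417287_at is higher by 1.34 and 1455631_at is lower by 0.80.

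In the Peg10-Sgce cluster, Sgce, which encodes a sarcoglycan of the cell membrane, read 10.50, 10.66 and 10.60 in wild type and 9.12, 9.79 and 9.37 in knockout. The wild-type arrays lay close together and all knockout arrays below them. The fall was 2.24-fold, −1.16 (SE 0.19), and passed with the block (limma, adjusted p = 0.0440, and 0.264 without it), but not after repeated quantile normalisation (0.0819) or without both arrays of number 1 (0.207). Its other probe set was lower in every pair with a mean difference of −0.64, and its groups overlapped.

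Sgce starts back to back with Peg10, a retrotransposon-derived gene of the placenta that is expressed from the same paternal allele. The only Peg10 probe set read 4.54, 3.87 and 4.23 in wild type and 4.20, 4.03 and 4.12 in knockout, on average below the lower quartile of all probe sets. Asb4, a maternally expressed gene of a ubiquitin ligase subunit, read 12.19, 12.16 and 12.10 in wild type and 11.59, 11.90 and 11.65 in knockout. Its groups did not overlap, with a difference of −0.44 that did not pass in either fit (limma, adjusted p = 1.00, and 0.365 with the block), and its other probe set differed by −0.43, also without overlap. Ppp1r9a, an actin-binding protein gene, read 8.06, 8.29 and 7.77 in wild type and 8.03, 8.73 and 7.44 in knockout, which overlapped. Calcr, the calcitonin receptor gene, read 4.03, 4.14 and 4.13 in wild type and 4.47, 4.31 and 4.49 in knockout, higher without overlap but near background throughout. Of the 5 genes only Sgce passed, in the blocked fit.

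**Figure D4:**
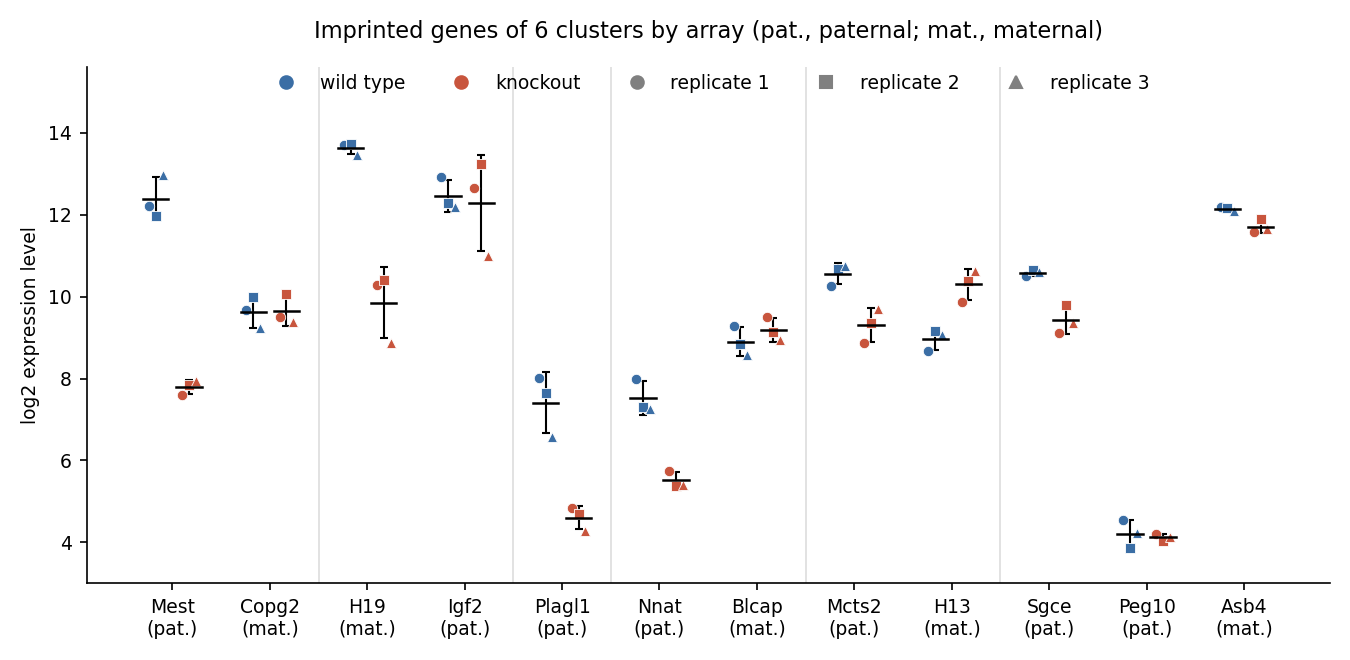
Log2 level per array of genes from 6 imprinted clusters, wild type in blue and knockout in red, with a symbol per replicate number. Horizontal bars are means and vertical bars are the SD (n = 3). Mest, H19, Plagl1, Nnat, Mcts2, Sgce and Asb4 are lower in knockout and H13 is higher, with no overlap, while Copg2, Igf2, Blcap and Peg10 overlap.

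Of the 6 most abundant other imprinted genes, 5 differed by −0.03 to 0.16, and Grb10, described after them, was higher in every pair. Peg3, a paternally expressed zinc-finger gene, read 14.04, 13.75 and 13.60 in wild type and 14.11, 13.73 and 13.66 in knockout. Gnas, which encodes the stimulatory G protein subunit, read 13.66, 13.33 and 13.06 against 13.56, 13.36 and 13.11. Phlda2, a maternally expressed gene that limits placental growth, read 13.15, 13.26 and 13.37 against 12.74, 13.46 and 13.60. In each of these genes the groups overlapped, and the differences were 0.04, −0.01 and 0.01. Ube3a, the ubiquitin ligase gene that is maternally expressed in neurons, read 12.23, 12.32 and 11.77 against 11.94, 12.31 and 11.98, and Slc38a4, an amino acid transporter gene, 11.63, 11.61 and 11.85 against 11.54, 12.08 and 11.94. Both overlapped as well.

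Grb10, a maternally expressed gene of an adaptor that dampens insulin signalling, read 12.57, 12.31 and 11.67 in wild type and 12.77, 12.68 and 12.26 in knockout. It was higher in every pair, by 0.20, 0.37 and 0.59, with overlap between the groups (limma, adjusted p = 1.00, and 0.455 with the block). Ddc, the paternally expressed neighbour that encodes the enzyme making dopamine and serotonin, differed by −0.84 and was lower in every pair, though not by its dim second probe set (−0.02), Cobl, an actin nucleator gene, by 0.05, and Commd1, a copper-handling gene, by −0.18. These 4 genes lie on chromosome 11, where 1165 of 1453 measured genes were lower, with a median difference of −0.16. Whether the differences of Ddc and Commd1 are part of that shift was not tested.

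In the Snrpn-Ube3a cluster all 6 measured genes had a negative difference, with a median of −0.42, and none passed in either fit. The paternally expressed Peg12, Mkrn3 (a ring-finger protein gene), Ndn (encoding the growth regulator necdin) and Magel2 (its relative) differed by −0.69, −0.63, −0.60 and −0.25 and were lower in every pair. Peg12 averaged 4.30, close to the lower quartile of all probe sets. Snrpn, which encodes a splicing protein, differed by −0.10, also lower in every pair by its brightest probe set, and Ube3a by −0.03. By these probe sets the groups of each of the 6 overlapped. Ndn had 4 further bright probe sets, with differences from −0.66 to −0.60, and in 1 of them, 1415923_at, the groups did not overlap, at 10.56, 10.27 and 10.32 in wild type and 9.97, 9.56 and 9.64 in knockout. Its other 3 lay below the lower quartile and differed by at most 0.10.

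In the Kcnq1-Cdkn1c cluster 4 of 7 genes were lower and 3 higher. Kcnq1ot1, the paternally expressed non-coding RNA that silences its neighbours, differed by 0.19. Cdkn1c, a cell cycle inhibitor gene under its control, differed by 0.52 and was higher in every pair, and Ascl2, a trophoblast transcription factor gene, by −0.42 without overlap but below the median level. Kcnq1, Slc22a18 and Tspan32 differed by −0.14, −0.10 and −0.20. The dimmer probe set of Slc22a18 differed by −0.36, and the 5 others of Kcnq1ot1 by −0.01 to 0.62, each with overlap. None of the 7 passed in either fit.

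In the Dlk1-Dio3 cluster the maternally expressed non-coding RNAs Meg3 and Rian were higher in knockout replicate 3 than in its wild-type counterpart, by 0.84 and 1.08. In numbers 1 and 2 the differences were 0.05 and −0.05 for Meg3 and 0.36 and −0.33 for Rian. The Meg3 arrays lay between 10.94 and 11.11 apart from knockout replicate 3 at 11.95. Rian read 9.64, 8.83 and 8.60 in wild type and 10.01, 8.50 and 9.68 in knockout, so that number 3 combined the lowest wild-type array with a high knockout array. Knockout replicate 3 also read the ES cell markers Pou5f1 and Nanog highest, at 10.8 and 9.26. The other arrays read 8.85 to 9.65 and 7.78 to 8.10. The remaining ES cell markers did not follow. Esrrb was lowest of all 6 arrays there, at 6.68. Zfp42, at 7.21, was lowest of the knockout arrays, though above all wild-type arrays. Sox2, at 5.77, was below replicate 1 of both genotypes. The part of the Pou5f1 and Nanog levels in the Meg3 and Rian values was not tested. Dlk1, a paternally expressed Notch-family ligand gene, differed by −0.51, 0.13 and −0.74. Igf2r, the maternally expressed receptor that clears IGF2, varied with the replicate number more than with genotype. It read 10.67, 8.92 and 8.04 in wild type and 10.34, 8.72 and 8.00 in knockout, and Airn, the paternal non-coding RNA across it, differed by −0.18.

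Of the remaining genes, Zim1 was higher without overlap by 0.47 and Usp29, beside it in the Peg3 cluster, differed by 0.30. Rasgrf1, a paternally expressed exchange factor gene, was lower without overlap by −0.51, at a level close to the lower quartile. Its other 2 probe sets, as dim, overlapped and differed by 0.02 and −0.03. Impact, Nap1l5, Sfmbt2, Zdbf2 and Inpp5f, all paternally expressed, differed by −0.13, −0.25, −0.02, 0.22 and −0.12. None of these 8 genes passed in either fit.

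Over the list, 30 genes had 83 further probe sets. None of these passed, with or without the block, when all 45037 probe sets were tested singly. In that wider test the kept probe sets of Sgce, Mcts2 and H13 did not pass with the block either. Without overlap 4 of the 83 were lower and 3 higher, shares close to the 4.46% and 3.5% among all genes. A difference at least 0.5 away from that of the kept probe set was found in 13, belonging to Ddc, H13, Ndn, Plagl1, Rasgrf1 and Sgce.

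Further imprinted genes outside the list of 49 were also read. Of 48 such genes 39 had a probe set, 20 were lower and 19 higher, with a median of −0.02, and none passed in either fit (limma, 2 at an unadjusted p under 0.05 without the block and 10 with it, where the whole table had 734 and 1680 of 18824). Nap1l4 and Cd81, the most abundant of them, differed by 0.02 and 0.17. Chosen after their values were seen, Pde4d, a phosphodiesterase gene, read 7.71, 7.36 and 6.18 in wild type and 8.93, 8.07 and 8.29 in knockout, a difference of 1.34 without overlap (limma, adjusted p = 1.00, and 0.135 with the block), and Gatm, a gene of creatine synthesis, differed by −0.61 without overlap (0.349 with the block). Of 56 genes that neighbour the clusters, 52 were measured, 25 lower and 27 higher, with a median of 0.02. One passed with the block: Ikzf1, a transcription factor gene of lymphoid cells on chromosome 11, read 8.85, 8.79 and 8.33 in wild type and 6.96, 6.94 and 5.30 in knockout (limma, adjusted p = 0.0296). Xpo1 and Sf3b5, the most abundant, differed by −0.01 and 0.04.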

How the data were processed

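RNA of 6 samples was read on Affymetrix mouse genome arrays. The deposited values are log2 levels per probe set. Per the submitters' processing notes RMA and the affy package were used, and versions are not given in the sources used here. RMA as usually run sets arrays to a common distribution, which can hide a shift of all genes. Of 45101 probe sets 64 were controls, 34957 had 1 gene, 920 several and 9160 none. For each gene or gene combination the brightest probe set (highest mean of the 6 arrays) was kept (18824 in all), and the other probe sets are given by counts and, for some genes, by value. Chromosomes and sequences are from RefSeq (GRCm38.p6). No array had counts or a depth, and the number of arrays limits the precision.

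Knockout was compared with wild type with limma 3.58.1 in R 4.3.3 (lmFit, eBayes), Benjamini-Hochberg adjusted over the whole table, threshold 0.05, and again with the replicate number as a block. Deviations from the genotype mean correlated between same-numbered arrays by 0.698, 0.350 and 0.446, all above the limit of 0.1, so the numbers were taken to pair the arrays, a pairing that comes from the labels' replicate numbers. What a number marks is not in the labels. Members and lists were chosen with earlier results of these data known. Values in every array are given for genes past the threshold in either fit, the other genes of their clusters and the 6 other members with the highest mean. Fits were tested on simulated data, and figures drawn with matplotlib 3.10.9 in Python 3.11.15.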

Additional observations from a re-analysis of the deposited data

How the results depend on the processing

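The unblocked count of 1 imprinted gene was 2 with trended robust variance, 6 with array weights, 7 with the replicate block, and 0 to 2 with 1 array left out. The blocked count of 7 was 4 with all probe sets tested singly, 12 with array weights and 4 to 13 without both arrays of a number. Over all annotated genes the unblocked 6 calls became 10 with all probe sets tested singly, 73 with array weights, 62 with the block, and 3 to 8 with 1 array left out. The blocked 62 became 23 after repeated quantile normalisation, 25 with all probe sets singly, 268 with trended robust variance, 478 with array weights and 19 to 839 without a number. The paternal median of −0.25 was −0.176 with the mean of a gene's probe sets, −0.180 without cross-binding probe sets, and −0.438 to −0.210 with 1 array left out. The maternal median was −0.0879 to 0.146 with 1 array left out.

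Combinations with the block were chosen after seeing the data. In the 12 blocked settings run, H19, Mest and Nnat passed in 12, Plagl1 in 11, Mcts2 in 10, and Sgce and H13 in 9. Plagl1 was lost with cross-binding probe sets (_x_at and _s_at) left out (adjusted p = 0.820), and with all probe sets tested singly Sgce (0.0985), Mcts2 (0.0637) and H13 (0.0616) were. These 7 genes kept their direction in every setting run. The blocked calls rest on the pairing of replicate numbers.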
